A study of Mus musculus with 8 samples.

Results

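The granule serine protease cluster of mouse chromosome 14 was followed through 6 genes, Gzme, Gzmd, Gzmc, Gzmb, Mcpt8 and Ctsg, taken by symbol from the 35275 genes of the table. Each symbol matched exactly 1 Ensembl gene. They count as chosen by their FPKM difference between MPC EV and control libraries, since the choice was made with earlier results of these libraries known. Differences of these genes between groups are therefore given as descriptions with no p-value. RNA of cultured mouse myotubes (multinucleated muscle cells formed by fusion of progenitors), grown from primary cells of C57BL6/J mice, was sequenced in 8 libraries, 2 per group. The groups were MPC EV at 12 h, control at 12 h, MPC EV at 24 h and control at 24 h. MPC EV myotubes had received extracellular vesicles (EVs, membrane particles that cells release) of dividing primary myogenic progenitor cells (MPCs), isolated with a polymer. Control myotubes had received EVs prepared from growth medium, so no group is without added EVs, and higher levels with MPC EVs and lower levels with the control preparation cannot be told apart. All groups had been differentiated in medium with horse serum. Whether both libraries of a group stem from different cultures is not stated in the labels, so p-values measure only the spread between libraries, which may be technical.

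Granzymes are serine proteases stored in secretory granules. In cytotoxic lymphocytes they enter target cells with the help of perforin and can start cell death. The cluster on mouse chromosome 14 also holds the mast cell chymases, cathepsin G of neutrophil granules and Mcpt8, a protease of basophil granules that is widely used to mark basophils. Gzmb cleaves after aspartate and activates caspases. Gzmc, Gzmd and Gzme belong to a group of granzymes that expanded in rodents. All these proteases are made as inactive precursors that the dipeptidyl peptidase encoded by Ctsc trims, and serglycin (Srgn) holds them in the granule.

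The locus runs from 55941451 to 56262260 on chromosome 14 (GRCm38, the build that GENCODE vM21 uses and that the submitters' notes name as mm10), a span of 320.8 kb with 15 annotated proteases. Mcpt8 (ENSMUSG00000022157, 56082166 to 56085273), Ctsg (ENSMUSG00000040314, 56099881 to 56102574), Gzme (ENSMUSG00000022156, 56117626 to 56120625) and Gzmd (ENSMUSG00000059256, 56129556 to 56132608) lie next to each other within 50.4 kb. Gzmc (ENSMUSG00000079186, 56231441 to 56234656) starts 102.0 kb beyond Gzmd, and Gzmb (ENSMUSG00000015437, 56258838 to 56262260) ends the cluster. All 6 have 5 exons in their longest transcript and lie on the minus strand.

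The stretches just before the starts of the genes are shown because Gzme, Gzmd and Gzmc have close copies of the same sequence there but very different RNA levels, and because Mcpt8 and Ctsg, their neighbours in the expressed block, have unrelated ones. They come from RefSeq (GRCm38.p6) and hold the 250 bases before the RefSeq start, without those that GENCODE counts as transcript (15 for Gzmd, 76 for Mcpt8). Capitals mark matches to 7 short motifs searched on both strands.
Gzme, GRCm38.p6 chr14:56120626-56120875, minus strand: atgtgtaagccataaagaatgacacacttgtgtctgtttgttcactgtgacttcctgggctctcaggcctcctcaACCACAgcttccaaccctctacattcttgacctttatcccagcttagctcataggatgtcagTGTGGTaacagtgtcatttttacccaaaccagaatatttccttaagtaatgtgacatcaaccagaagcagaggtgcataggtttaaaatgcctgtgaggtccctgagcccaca
Gzmd, GRCm38.p6 chr14:56132609-56132843, minus strand: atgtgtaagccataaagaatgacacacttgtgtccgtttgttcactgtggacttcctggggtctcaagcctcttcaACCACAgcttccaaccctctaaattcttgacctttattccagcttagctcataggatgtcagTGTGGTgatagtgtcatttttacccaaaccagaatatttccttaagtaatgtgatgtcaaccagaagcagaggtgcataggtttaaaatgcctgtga
Gzmc, GRCm38.p6 chr14:56234658-56234907, minus strand: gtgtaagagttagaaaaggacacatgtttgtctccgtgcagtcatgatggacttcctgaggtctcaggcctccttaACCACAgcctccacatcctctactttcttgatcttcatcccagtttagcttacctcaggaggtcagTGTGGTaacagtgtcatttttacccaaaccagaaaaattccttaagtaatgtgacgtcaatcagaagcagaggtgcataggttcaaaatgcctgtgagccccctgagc
Mcpt8, GRCm38.p6 chr14:56085274-56085447, minus strand: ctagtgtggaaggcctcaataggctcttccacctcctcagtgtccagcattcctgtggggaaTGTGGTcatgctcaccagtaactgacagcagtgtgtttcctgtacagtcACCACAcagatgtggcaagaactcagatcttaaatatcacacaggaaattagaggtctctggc
Ctsg, GRCm38.p6 chr14:56102575-56102824, minus strand: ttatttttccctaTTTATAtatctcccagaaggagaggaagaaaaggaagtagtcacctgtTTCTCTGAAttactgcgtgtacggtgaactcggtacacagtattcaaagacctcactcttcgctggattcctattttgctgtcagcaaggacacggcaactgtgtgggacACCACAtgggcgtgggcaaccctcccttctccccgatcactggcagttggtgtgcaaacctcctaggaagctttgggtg

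Over windows of 300 bases (250 before and 50 after the start), Gzme and Gzmd were 93.4% identical in a global alignment, and Gzmc was 82.7% identical to each. Mcpt8 was 47.4% identical to Gzme and Ctsg 46.2%, which is close to the 44.7% between Gzme and Gzmb. The word TGTGGT, the core bound by RUNX factors, was in the windows of all 6 genes on either strand, against 16.8% of 32851 windows of mouse genes. Counted from the RefSeq start, with -1 the base before it, Gzme, Gzmd and Gzmc carried it at nearly the same places, on the plus strand of the gene from base -113 in Gzme, -112 in Gzmd and -108 in Gzmc, and on the other strand from base -175 in Gzme and -174 in Gzmd and Gzmc. The windows of 5 of 7 other proteases of the locus also held the word, and those genes were at or near 0 in these libraries. Among the 6, a match to TGANTCA (AP-1) was found in the Gzmb window, and the motif is in 7.8% of all windows. TTCNNNGAA (STAT) was in the windows of Ctsg and Gzmb and is in 8.3% of all windows, and TATAAA was in that of Ctsg and is in 13.6%. None of the 6 windows held AGATAA, bound by factors of mast cells such as Gata2, which is in 11.2% of all windows. The E-box CAGCTG, a site of myogenic factors, and the NF-kB motif were not in them either, and are in 16.3% and 20.7% of all windows. A match is a description of the letters and no evidence of binding.

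Levels are given as FPKM, the fragments of a gene divided by its length and by the library's total, as the authors deposited them. The depth read from the steps of low values was about 16300000 to 20200000 fragments per library. All 12 proteases with a value above 0 had whole numbers of fragments in all 8 libraries, within 0.05 of a fragment, at a gene length within 15% of the annotated one. That length was searched for such a fit. The fit is therefore a weak check for Gzmg, Mcpt4 and Cma2, which had a value above 0 in 1 library each. Fragment numbers below are these estimates. Libraries of a group correlated at 0.992 to 0.996 across genes, except for the control 12 h pair at 0.947, whose replicate 2 stands apart.

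The basophil protease gene Mcpt8 had the highest level of the locus in every library. At 12 h it had 24.8 and 24.4 FPKM in MPC EV myotubes, against 8.18 and 7.90 FPKM in control myotubes. At 24 h it had 31.2 and 23.0 FPKM in MPC EV myotubes, against 4.09 and 4.69 FPKM in control myotubes. The groups did not overlap at either time, and control myotubes were lower at 24 h than at 12 h. At 12 h the mean was 24.6 ± 0.252 FPKM with MPC EVs and 8.04 ± 0.201 FPKM in control, and at 24 h it was 27.1 ± 5.81 FPKM with MPC EVs and 4.39 ± 0.423 FPKM in control (SD, n = 2 each). In bulk RNA, more cells of a type and more RNA per cell cannot be told apart. On the log2(FPKM + 0.5) scale, used for all log2 differences here and understating the change of low genes, the MPC EV minus control difference was 1.56 ± 0.15 (SE) at 12 h and 2.48 ± 0.15 at 24 h. Without control 12 h replicate 2 it was 1.53 at 12 h. These values rest on 750 MPC EV and 265 control fragments at 12 h and on 790 MPC EV and 150 control fragments at 24 h.

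Gzme stood second. It had 8.51 and 8.15 FPKM in MPC EV myotubes at 12 h, against 2.31 and 1.91 FPKM in control myotubes. At 24 h the MPC EV libraries had 15.5 and 9.16 FPKM and the control libraries 1.04 and 1.18 FPKM. Again no MPC EV library was as low as a control library of its time. The 2 MPC EV libraries at 24 h were far apart, and replicate 1 was the higher for Gzme and Mcpt8 alike. The MPC EV mean was 3.94 times the control mean at 12 h and 11.1 times at 24 h, with log2 differences of 1.76 ± 0.23 and 2.95 ± 0.23. Without control 12 h replicate 2 the 12 h difference was 1.65. Without MPC EV 24 h replicate 1 the 24 h difference was 2.58.

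Gzmd, the near neighbour of Gzme and the closest to it in sequence among the 6 genes, had the largest relative difference. At 12 h it had 1.68 and 2.49 FPKM in MPC EV myotubes, against 0.277 and 0.261 FPKM in control myotubes. At 24 h it had 4.51 and 4.21 FPKM in MPC EV myotubes, against 0.105 and 0.103 FPKM in control myotubes. The gene was thus close to its detection limit in control myotubes and well above it in all 4 MPC EV libraries. In fragments, the 12 h libraries held 28 and 44 with MPC EVs and 5 and 5 in control. The 24 h libraries held 71 and 73 with MPC EVs and 2 and 2 in control. Scaled for depth, the MPC EV over control ratio of fragments was 7.79 at 12 h (95% exact interval 4.0 to 16.9) and 41.9 at 24 h (16.0 to 155.7). Such intervals cover counting error only. The log2 differences were 1.73 ± 0.18 and 3.01 ± 0.18, and the 24 h value was 4.45 with a pseudocount of 0.1.

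Gzme and Gzmd transcripts are 90.0% identical over their aligned length, so some fragments of the abundant Gzme could have been counted as Gzmd. None of the 100-base windows of the Gzme transcript occurs unchanged in a transcript of another gene. For Gzmd 2 of 865 such windows do, in Gzmg. The ratio of Gzmd to Gzme FPKM within a library was 0.197 and 0.305 with MPC EVs and 0.120 and 0.137 in control at 12 h, and 0.292 and 0.460 with MPC EVs and 0.101 and 0.087 in control at 24 h. The control 24 h ratios rest on 2 Gzmd fragments per library. The part of miscounted Gzme fragments in the Gzmd values was not tested. The ratio of Gzme to Mcpt8 ranged from 0.334 to 0.495 in the 4 MPC EV libraries and from 0.242 to 0.283 in the 4 control libraries.

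Cathepsin G (Ctsg), lies between Mcpt8 and Gzme and stood far below both. At 12 h it had 1.21 and 1.14 FPKM in MPC EV myotubes, against 0.266 and 0.151 FPKM in control myotubes. At 24 h it had 0.917 and 1.78 FPKM in MPC EV myotubes, against 0.658 and 0.494 FPKM in control myotubes. The groups did not overlap, but the gap at 24 h was smaller than the distance between the MPC EV libraries, and here MPC EV replicate 2 was the higher one. The log2 difference was 1.25 at 12 h, and from 0.85 with a pseudocount of 1 to 2.07 with one of 0.1. At 24 h it was 0.74, and 1.08 without MPC EV 24 h replicate 1 and 0.40 without replicate 2. Scaled for depth, the ratio of fragments was 5.68 at 12 h (2.64 to 14.0, from 42 MPC EV and 8 control fragments) and 2.38 at 24 h (1.41 to 4.10, from 47 MPC EV and 23 control fragments). Control libraries of Ctsg were higher at 24 h than at 12 h, while those of Mcpt8, Gzme and Gzmd were lower.

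Gzmc and Gzmb were near the detection limit. Gzmc had 0.0618 and 0 FPKM in MPC EV myotubes and 0 and 0 FPKM in control myotubes at 12 h, and 0.131 and 0.119 FPKM in MPC EV and 0 and 0.0530 FPKM in control myotubes at 24 h. Its 6 fragments in all 8 libraries do not set a direction: at 24 h the ratio was 4.65 with an interval of 0.46 to 229.1. Gzmb, the granzyme best known from cytotoxic lymphocytes, had 0 and 0 FPKM in MPC EV and 0 and 0.0355 FPKM in control myotubes at 12 h, and 0.0864 and 0.0392 FPKM in MPC EV and 0 and 0.105 FPKM in control myotubes at 24 h. With 7 fragments in all, no difference was detectable at this depth.

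**Figure D1:**
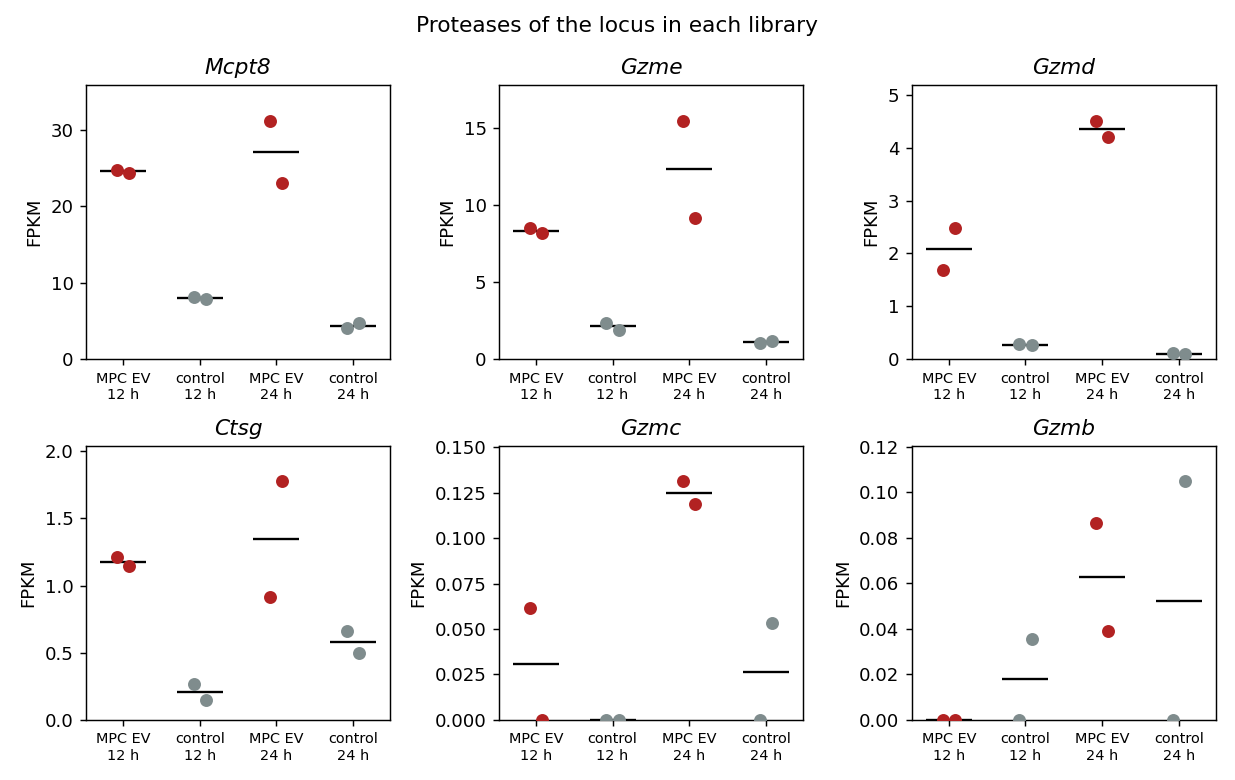
FPKM (vertical axes, each from 0 and with its own range) of the 6 proteases in each library, by treatment and time. Each point is 1 library and each line a mean of 2 libraries. Mcpt8, Gzme, Gzmd and Ctsg have no overlap between MPC EV and control at either time. Gzmc and Gzmb stay below the lowest value of Ctsg, 0.151 FPKM. Both MPC EV libraries were above both control libraries for 17.1% of tested genes at 12 h and 23.7% at 24 h. Ctsg is not among those tested genes.

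In MPC EV myotubes the order of levels was Mcpt8, Gzme, Gzmd and Ctsg at both times, and no 2 neighbours in that order overlapped between libraries of the same group. In control myotubes Mcpt8 and Gzme came first and second. Gzmd and Ctsg overlapped there at 12 h, and at 24 h Ctsg was above Gzmd in both libraries. Summed over the 6 genes, MPC EV libraries had 36.2 and 36.2 FPKM against 11.04 and 10.3 FPKM in control at 12 h, and 52.3 and 38.3 FPKM against 5.90 and 6.63 FPKM in control at 24 h.

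In the fit of all genes with limma, 3 of the 6 (Gzme, Gzmd and Mcpt8) had a mean of at least 1 FPKM and were tested. Ctsg, just outside with a mean of 0.827 FPKM, Gzmc and Gzmb were not. Gzmd, just inside with a mean of 1.70 FPKM, passed this filter through its MPC EV libraries. With a filter of 0.1 FPKM Ctsg was tested too, and passed at 12 h but not at 24 h. All 3 were higher past the adjusted threshold of 0.05 at 12 h, where 4.36% of 10981 tested genes were called higher, 14.3% lower and 18.6% in either direction. All 3 were also higher at 24 h, where 2.61% were called higher, 0.956% lower and 3.57% in either direction. Because the genes were chosen with these contrasts known, nothing is read from these counts. The call of Gzme at 12 h was lost with no filter and without MPC EV 12 h replicate 1 or 2 (log2 differences of the fits lay between 1.59 and 1.94 over all settings), and that at 24 h without control 24 h replicate 1. Both MPC EV libraries were above both control libraries for 17.1% of tested genes at 12 h and for 23.7% at 24 h. By size, Gzmd and Gzme had ranks 1 and 2 of the log2 differences of all tested genes at 24 h, and Mcpt8 rank 6. At 12 h they ranked 65, 59 and 103. These ranks restate the choice of the genes and are no further result, and Gzmd is ranked only through its MPC EV libraries. The median of all genes was -0.12 at 12 h and -0.03 at 24 h, and relative to it the 12 h differences were 1.88 for Gzme, 1.84 for Gzmd and 1.67 for Mcpt8. Of the calls at 12 h 23.4% were higher, a share that was 57.3% with median-ratio scaling and 40.4% with quantile normalization.

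**Figure D2:**
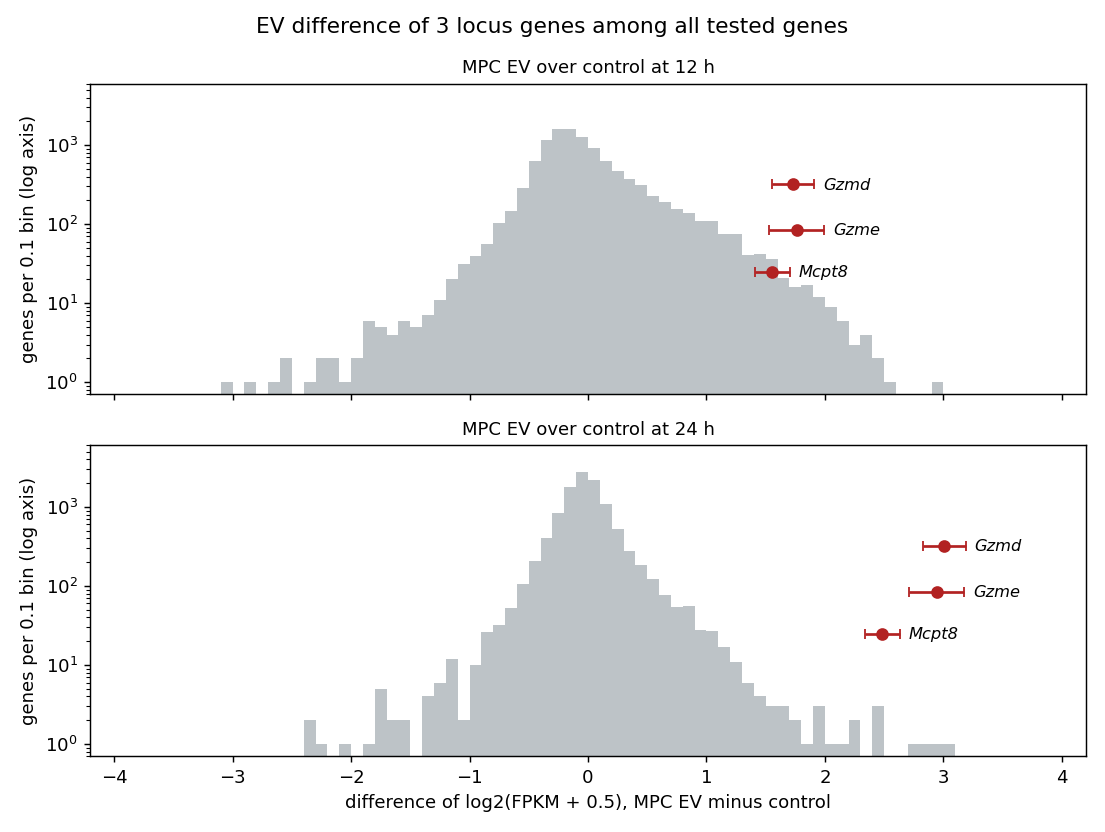
Number of tested genes per 0.1 bin of the log2(FPKM + 0.5) difference between MPC EV and control (log vertical axis, grey bars) at 12 h and 24 h, with Gzme, Gzmd and Mcpt8 as points with SE bars at arbitrary heights. At 24 h the points at 3.01, 2.95 and 2.48 lie at the right end of the distribution. At 12 h, at 1.73, 1.76 and 1.56, they lie inside its right tail. The genes were chosen with these differences known, so nothing is read from where the points lie.

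Over time, Mcpt8 in control myotubes was lower at 24 h than at 12 h by a log2 difference of -0.81 ± 0.15, Gzme by -0.69 ± 0.23 and Gzmd by -0.35 ± 0.18. Of the 3, Mcpt8 passed the threshold, where 10.3% of genes were called lower, 7.54% higher and 17.8% in either direction. Both 24 h libraries of these 3 genes were below both 12 h libraries, which held for 30.9% of tested genes. Mcpt8 was not past the threshold without control 24 h replicate 1 (-0.72) or 2 (-0.89) or with no filter, and Gzme also passed without MPC EV 24 h replicate 1 or 2. For Ctsg, not tested, the control difference was 0.60. In MPC EV myotubes the 24 h minus 12 h difference was 0.93 ± 0.18 for Gzmd, 0.49 ± 0.23 for Gzme and 0.12 ± 0.15 for Mcpt8. The Gzme value was 0.13 without MPC EV 24 h replicate 1 and 0.85 without replicate 2. Gzmd passed there, where 12.9% of genes were called higher, 5.4% lower and 18.3% in either direction. Its call ended without MPC EV 12 h replicate 1 or either MPC EV 24 h library, with quantile normalization and with no filter. The sign of the Mcpt8 value turned to -0.09 without MPC EV 24 h replicate 1. The MPC EV effect at 24 h minus that at 12 h was 1.19 ± 0.33 for Gzme, 1.28 ± 0.25 for Gzmd and 0.93 ± 0.21 for Mcpt8. With all libraries none of them passed, and neither did any of the 10981 genes in limma (0% called, with 2014 genes at an unadjusted p under 0.05). Without control 12 h replicate 1 all 3 passed, at 1.07 for Gzme, 1.26 for Gzmd and 0.90 for Mcpt8, among 3668 genes that then passed. These comparisons share libraries and are not independent of each other. The 3 genes count as chosen with these contrasts known too, so nothing is read from their calls here.

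The rest of the cluster was at or near 0. Of the 9 other proteases (Gzmf, Gzmg, Gzmn, Mcpt1, Mcpt2, Mcpt4, Mcpt9, Cma1 and Cma2), 3 were listed at 0 in all libraries and 6 had a value above 0 in at least 1. The highest value among them was 0.172 FPKM, of Gzmn in MPC EV 12 h replicate 2. Gzmf, Mcpt2 and Mcpt9 were at 0 throughout. A count of 0 allows up to 3 fragments per library, which is 0.162 to 0.200 FPKM for Gzmf, 0.140 to 0.173 FPKM for Mcpt2 and 0.074 to 0.092 FPKM for Mcpt9. The nearest expressed gene on the chymase side, Sdr39u1, lies 41.2 kb from the cluster and had a log2 fold change of -0.18 ± 0.08 at 12 h (adjusted p = 0.166) and 0.03 ± 0.08 at 24 h (adjusted p = 0.963) for MPC EV against control. Its levels were 13.3 and 12.9 FPKM with MPC EVs and 14.1 and 15.7 FPKM in control at 12 h, and 21.0 and 23.5 FPKM with MPC EVs and 21.9 and 21.8 FPKM in control at 24 h. On the granzyme side the nearest, Cenpj, which encodes a centriole protein, lies 264.5 kb away. Its log2 fold changes were 0.51 ± 0.48 at 12 h (adjusted p = 0.436) and -0.14 ± 0.48 at 24 h (adjusted p = 0.965). Cenpj had 1.77 and 1.66 FPKM with MPC EVs and 2.07 and 0.44 FPKM in control at 12 h. At 24 h it had 0.80 and 1.68 FPKM with MPC EVs and 1.23 and 1.48 FPKM in control. The 0.44 FPKM is that of control 12 h replicate 2, and control 12 h replicate 1 was above both MPC EV libraries. Neither neighbour passed, which does not show that they did not differ. All levels above the 0.172 FPKM of Gzmn among the 15 proteases lay within the block from Mcpt8 to Gzmd.

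**Figure D3:**
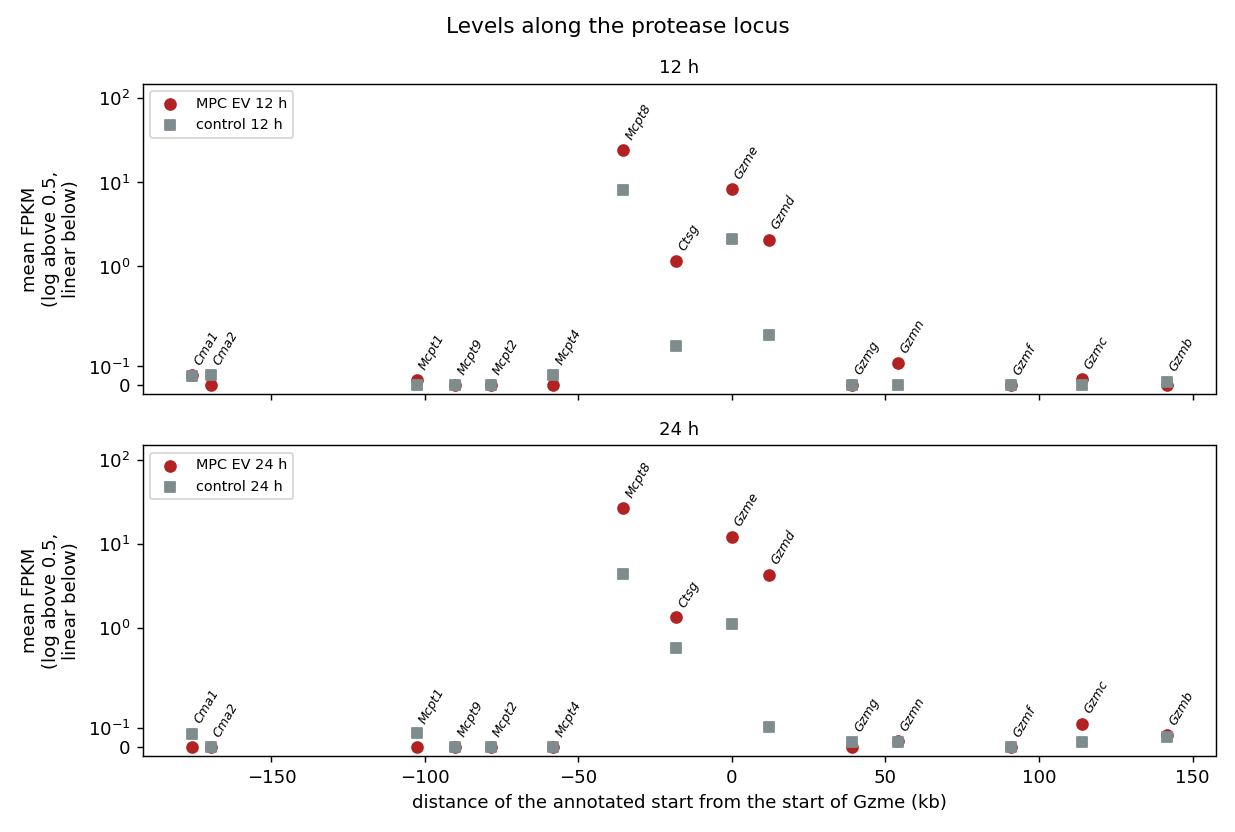
Mean FPKM of 2 libraries (vertical axes, logarithmic above 0.5 and linear below) for the 15 proteases of the locus, against the distance of each annotated start from that of Gzme in kb, at 12 h and 24 h. Circles are MPC EV and squares control; with MPC EVs the means of Mcpt8, Ctsg, Gzme and Gzmd lie above all those of the other proteases.

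Markers of mast cells, basophils and cytotoxic lymphocytes were at or near 0, while some neutrophil and macrophage markers were in the range of Ctsg. Of 11 mast cell and basophil markers the highest value in any library was 0.206 FPKM, and Fcer1a, of the high-affinity IgE receptor, and Mrgprb2 were at 0 in all 8 libraries. Kit and Cpa3, a receptor and a carboxypeptidase of mast cells, did not exceed 0.0288 FPKM for Kit and 0.0368 FPKM for Cpa3 in any library. The summed level of the list was 0.104 to 0.218 FPKM with MPC EVs and 0.239 to 0.286 FPKM in control at 12 h, and 0.088 to 0.174 FPKM with MPC EVs and 0.347 to 0.415 FPKM in control at 24 h. These sums rest on a few fragments, and the members did not share a direction. Tpsab1, a mast cell tryptase, had 0 and 0 FPKM with MPC EVs and 0.0554 and 0.105 FPKM in control at 12 h, and 0 and 0.0288 FPKM with MPC EVs and 0.105 and 0.206 FPKM in control at 24 h. Cd200r3, a receptor of basophils and mast cells, had 0.104 and 0.0844 FPKM with MPC EVs and 0.0138 and 0.0390 FPKM in control at 12 h, and 0.0158 and 0.0574 FPKM with MPC EVs and 0.0131 and 0 FPKM in control at 24 h. It was higher in both MPC EV libraries than in either control library at each time. Of 10 cytotoxic lymphocyte markers 5 were at 0 throughout and the highest value was 0.080 FPKM, of perforin (Prf1). Their summed level was 0.037 to 0.080 FPKM with MPC EVs and 0 to 0.060 FPKM in control at 12 h, and 0.027 to 0.066 FPKM with MPC EVs and 0.019 to 0.056 FPKM in control at 24 h. Of 11 neutrophil and macrophage markers, Elane and Ly6g were at 0 in every library, and the pan-leukocyte gene Ptprc reached at most 0.033 FPKM. Their sum was 1.42 to 2.14 FPKM with MPC EVs and 1.11 to 1.77 FPKM in control at 12 h, and 1.63 to 2.71 FPKM with MPC EVs and 1.27 to 1.82 FPKM in control at 24 h, and overlapped between MPC EV and control at both times. Cd68 reached 1.74 FPKM, Itgam 0.638 FPKM and S100a8 0.518 FPKM, against 0.151 to 1.78 FPKM for Ctsg. Mpo, Prtn3, Adgre1, Csf1r and S100a9 did not exceed 0.118 FPKM in any library. The part of such cells, if any, in the Ctsg values was not tested. No marker of these lists was tested, since none had a mean of 1 FPKM.

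**Figure D4:**
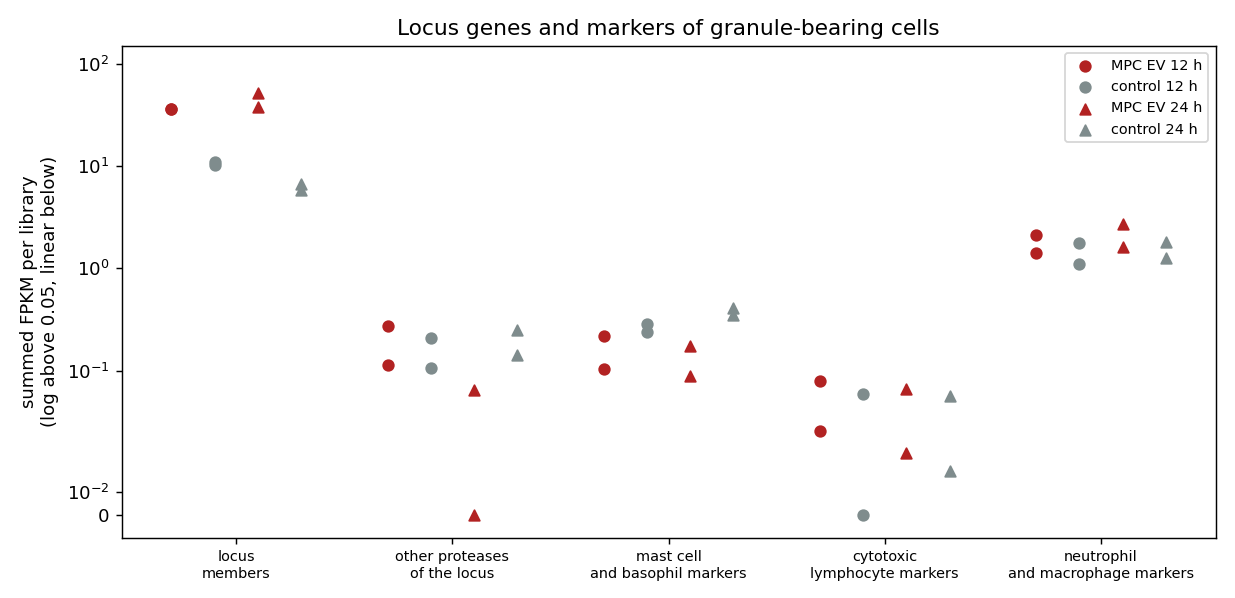
Summed FPKM per library (vertical axis, logarithmic above 0.05 and linear below) of the 6 locus genes, the 9 other proteases of the locus and 3 marker lists. Each point is 1 library; the sums of the 6 genes separate MPC EV from control, while the sums of the cytotoxic and the neutrophil and macrophage markers overlap between them. The sums of the mast cell and basophil markers, all at or below 0.415 FPKM, rest on a few fragments.

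The cultures had the markers of myotubes. All 9 myotube markers were tested, and their summed level was 13935 to 14415 FPKM with MPC EVs and 12133 to 13955 FPKM in control at 12 h, and 11343 to 12481 FPKM with MPC EVs and 8801 to 9122 FPKM in control at 24 h. The sums overlapped at 12 h and not at 24 h. With MPC EVs 4 of the 9 rose and none fell at 12 h, where 4.36% of all tested genes were called higher. At 24 h 4 rose and none fell, where 2.61% were called higher. Those at 12 h were Myh3, Myh8, Actn2 and Ttn. Ttn had 25.9 and 30.2 FPKM with MPC EVs and 11.8 and 3.66 FPKM in control at 12 h. The 3.66 FPKM is that of control 12 h replicate 2, which stands apart. Actn2, which encodes the Z-disc protein alpha-actinin, rose by 1.64 ± 0.12 at 12 h (adjusted p = 0.00245) and by 2.71 ± 0.12 at 24 h (adjusted p = 0.00196). The other 5 markers at 12 h had log2 differences of -0.13 for Myog, -0.09 for Mymk, 0.06 for Acta1, 0.10 for Tnnt3 and 0.34 for Ckm. The 5 markers not called at 24 h, with Ttn in place of Ckm, lay between 0.005 for Myog and 0.45 for Acta1. Ckm rose by 1.00 ± 0.15 at 24 h (adjusted p = 0.0268). The sum of 5 fibroblast markers was 4.57 to 6.08 FPKM with MPC EVs and 9.19 to 9.20 FPKM in control at 12 h, and 6.66 to 7.68 FPKM with MPC EVs and 10.0 to 10.6 FPKM in control at 24 h. Most of it was the collagen gene Col1a1, with 3.40 and 5.002 FPKM with MPC EVs and 8.08 and 8.05 FPKM in control at 12 h, which fell by 0.89 ± 0.16 at 12 h (adjusted p = 0.0196) and did not pass at 24 h (-0.59 ± 0.16, adjusted p = 0.137). Pdgfra had 0.888 and 0.838 FPKM with MPC EVs and 0.650 and 0.828 FPKM in control at 12 h, and 1.23 and 0.872 FPKM with MPC EVs and 0.865 and 0.777 FPKM in control at 24 h. The sum of 4 progenitor and division markers was 20.5 to 24.3 FPKM with MPC EVs and 13.6 to 26.7 FPKM in control at 12 h, and 29.4 to 34.5 FPKM with MPC EVs and 37.1 to 38.1 FPKM in control at 24 h. The part of these markers in the locus result was not tested.

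Of 13 genes that process, store or release granules, 9 were tested. With MPC EVs 2 fell and none rose at 12 h, where 14.3% of all tested genes were called lower, so that the count is near that share. At 24 h 1 rose and 1 fell, where 2.61% of all tested genes were called higher and 0.956% lower. The medians were -0.03 at 12 h and 0.02 at 24 h, against -0.12 and -0.03 for all genes. Stx11, a syntaxin needed for granule release by lymphocytes, fell at both times, by 0.45 ± 0.09 at 12 h (adjusted p = 0.0237) and by 0.55 ± 0.09 at 24 h (adjusted p = 0.0315) on the log2 scale. It had 13.9 and 13.2 FPKM with MPC EVs and 17.5 and 20.0 FPKM in control at 12 h. Its 12 h call ended with median-ratio scaling (-0.32), with no filter and without any library other than those of control 12 h. Its 24 h call ended with no filter, with the replicate block and likewise without any library other than those of control 12 h. M6pr, a mannose 6-phosphate receptor that sorts granule enzymes, fell by 0.33 ± 0.07 at 12 h (adjusted p = 0.0319), a call that ended with median-ratio scaling (-0.19), quantile normalization (-0.23), no filter, the replicate block and without any library other than those of control 12 h. Ctsh, a lysosomal aminopeptidase, rose by 0.88 ± 0.12 at 24 h (adjusted p = 0.0162), with 10.2 and 10.7 FPKM with MPC EVs and 6.07 and 4.84 FPKM in control. That call ended without any of the 4 libraries of 24 h, with values from 0.735 to 1.03, and with no filter. Without control 12 h replicate 2, 1 of the 9 rose and 2 fell at 12 h.

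Ctsc, the peptidase that activates granzymes and Mcpt-type proteases, was low, at 0.864 and 0.680 FPKM with MPC EVs and 0.616 and 0.455 FPKM in control at 12 h, and at 1.57 and 1.33 FPKM with MPC EVs and 1.60 and 1.297 FPKM in control at 24 h. Its log2 fold change with MPC EVs was 0.30 ± 0.17 at 12 h (adjusted p = 0.237) and 0.004 ± 0.17 at 24 h (adjusted p = 0.995). It rose with time in control myotubes, by 0.91 ± 0.17 (adjusted p = 0.0159), a call that ended with quantile normalization (0.69), no filter and without either control 24 h library (0.80 and 1.02). Serglycin (Srgn), the proteoglycan of the granule matrix, did not exceed 0.176 FPKM. Gzmm, a granzyme encoded outside the cluster, had 1.79 and 1.14 FPKM with MPC EVs and 1.45 and 1.25 FPKM in control at 12 h, and 1.24 and 1.60 FPKM with MPC EVs and 0.789 and 0.808 FPKM in control at 24 h. It did not pass (log2 fold change 0.07 ± 0.20, adjusted p = 0.806 at 12 h and 0.56 ± 0.20, adjusted p = 0.261 at 24 h). Gzma and Gzmk, which also lie elsewhere, were at 0 in all libraries.

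Of 9 protease inhibitor genes, 3 were tested and none passed with MPC EVs at either time. Without control 12 h replicate 2, 1 rose at 12 h, and 1 rose and 1 fell at 24 h. Serpinb9, which encodes an inhibitor of granzyme B, was low at 0.582 and 0.707 FPKM with MPC EVs and 1.06 and 1.18 FPKM in control at 12 h. At 24 h it had 1.06 and 0.673 FPKM with MPC EVs and 1.01 and 0.999 FPKM in control, and the groups overlapped. Serpina3g, not tested with a mean of 0.4793 FPKM, was lower in both MPC EV libraries than in either control library at each time. It had 0.032 and 0.0302 FPKM with MPC EVs and 1.3027 and 0.8941 FPKM in control at 12 h. At 24 h Serpina3g had 0.034 and 0.0617 FPKM with MPC EVs and 0.9849 and 0.4945 FPKM in control. Slpi, which was tested, went the other way (log2 fold change 0.639 at 12 h and 0.892 at 24 h) and did not pass. Of 14 transcription factors known from granule-bearing cells, 7 were tested. At 12 h 1 rose and 2 fell with MPC EVs, where 4.36% of all tested genes were called higher and 14.3% lower, and at 24 h none passed. The median of the 7 was -0.25 at 12 h and -0.26 at 24 h, against -0.12 and -0.03 for all genes. Runx1 had 62.7 and 72.9 FPKM with MPC EVs and 53.6 and 53.0 FPKM in control at 12 h (0.34 ± 0.09, adjusted p = 0.0461), and 35.8 and 39.9 FPKM with MPC EVs and 37.8 and 37.9 FPKM in control at 24 h (-0.003 ± 0.089, adjusted p = 0.995). Its 12 h call ended without any library other than control 12 h replicate 1, and without control 12 h replicate 2 no factor rose. It also ended with the lower filter of 0.1 FPKM, no filter and the replicate block. Runx2 fell by 0.58 ± 0.13 (adjusted p = 0.0322) and Stat5a by 0.77 ± 0.13 (adjusted p = 0.0154) at 12 h. The Runx2 call ended with median-ratio scaling (-0.46), no filter, the replicate block and without any library other than those of control 12 h, and the Stat5a call with no filter and without MPC EV 12 h replicate 1 (-0.61). Gata2, a factor of mast cells and basophils, had 7.66 and 9.22 FPKM with MPC EVs and 10.7 and 9.62 FPKM in control at 12 h, and did not pass (-0.26 ± 0.10, adjusted p = 0.13). Of the factors not tested, Gata1, Spi1, Tbx21, Runx3, Myb and Prdm1 had values at or near 0. Eomes, also not tested, had 0.454 and 0.291 FPKM with MPC EVs and 0.180 and 0.184 FPKM in control at 12 h. At 24 h Eomes had 0.344 and 0.484 FPKM with MPC EVs and 0.0998 and 0.139 FPKM in control.

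The genes whose pattern over the 8 libraries was most like that of Gzme, by Pearson correlation of log2 values, were Adora2b (r = 0.995), Krt19 (0.992), Apbb1ip (0.992), Mcpt8 (0.991) and Ankrd2 (0.982). For Mcpt8 they were Adora2b (0.992), Gzme (0.991), Ankrd2 (0.990), Apcdd1 (0.988) and Lbh (0.987). These are descriptions over libraries that share the same 4 groups. Adora2b, an adenosine receptor, had 5.23 and 5.14 FPKM with MPC EVs and 3.73 and 3.60 FPKM in control at 12 h, and 6.31 and 5.45 FPKM with MPC EVs and 2.83 and 2.93 FPKM in control at 24 h. Ankrd2, which encodes an ankyrin repeat protein of the sarcomere, had 32.9 and 29.1 FPKM with MPC EVs and 12.6 and 13.6 FPKM in control at 12 h, and 39.5 and 32.1 FPKM with MPC EVs and 7.98 and 6.67 FPKM in control at 24 h. In both genes, as in Gzme and Mcpt8, MPC EV replicate 1 was the highest library at 24 h and the control libraries were lower at 24 h than at 12 h. Both were picked by correlation over these libraries, so this likeness restates the choice and is no further result.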

How the data were processed

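Per the labels, libraries were unstranded and paired-end; the authors deposited FPKM in 8 columns. HISAT2, DESeq2 (version given as 2) and mm10 are named, with no role, in the submitters' processing notes; what counted the fragments, and on which annotation, is not given in the sources used here. Symbols, exon lengths and coordinates came from GENCODE vM21, and 34490 IDs matched. No 2 columns were identical. Values were taken as log2(FPKM + 0.5), and the 10981 genes averaging 1 FPKM or more were fitted by limma 3.58.1 under R 4.3.3 (4 group means, 4 residual degrees of freedom, intensity trend, two-sided, Benjamini-Hochberg adjustment over all tested genes, threshold 0.05). The steps were tested on simulated data. Fragment numbers were estimated from the steps of low FPKM values, and intervals are exact with scipy 1.17.1. Identities are from global alignments with Biopython 1.88. The genes, lists and tests were chosen with earlier results of these data known. Other genes were named from lists on granule cells, inhibitors and markers, if above a mean of 1 FPKM or in the locus, with up to 4 per list and comparison. Srgn, Serpinb9, Serpina3g, Eomes, Pdgfra, Ctsc, Gata2 and the factors and markers at or near 0 are named as levels after their values were seen. The 5 genes most alike to Gzme and to Mcpt8 were taken by correlation.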

Additional observations from a re-analysis of the deposited data

How the results depend on the processing

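Alternatives were pseudocounts of 0.1 and 1, a mean of at least 0.1 FPKM or no filter, median-ratio scaling, quantile normalization, a replicate block and each library left out. The differences of Mcpt8, Gzme, Gzmd and Ctsg were recomputed 285 times over these settings. Of these, 250 moved by less than the spread between replicates or not at all, 33 by more and 2 changed sign. Both sign changes were in the MPC EV 24 h minus 12 h comparison. Over left-out libraries it spanned -0.094 to 0.34 for Mcpt8 and -0.24 to 0.44 for Ctsg. Many of the 250 were fixed in advance. A filter, the replicate block or a left-out library of another group cannot alter a difference of group means. Leaving out a library of a compared group cannot move a difference between 2 groups past this spread. The count of 250 is therefore no measure of stability. Values of list genes that passed were recomputed 315 times; 116 no longer passed and 0 changed sign. Over all genes, with no filter the calls were 704 (against 2045) for MPC EV at 12 h, 177 (392) at 24 h, 1095 (1959) over time in control, 940 (2013) over time in MPC EV and 130 (0) for the difference of the effects. At 12 h they were 1284 with median-ratio scaling and 1253 with quantile normalization. Over time in MPC EV 70.5% of calls were higher, and 49.3% and 55.7% under these scalings. Replicate differences correlated at -0.01 between MPC EV and control at 12 h and at 0.24 at 24 h, and from -0.61 to 0.24 over all pairs of groups. Such correlations cannot show whether the replicate numbers pair the libraries. With the replicate block 1114 genes passed at 12 h and 183 at 24 h. Leaving out each library gave 212 (without MPC EV 12 h replicate 1) to 5671 calls at 12 h, 27 (without control 24 h replicate 1) to 958 at 24 h, 525 (without control 24 h replicate 2) to 4519 over time in control, 446 (without MPC EV 24 h replicate 2) to 4176 over time in MPC EV and 0 to 3668 for the difference, the highest count each time without control 12 h replicate 1; fits that leave 1 library in a group assume that it varies like the others. The cause of these shifts was not tested. Depth limits Gzmc, Gzmb and control Gzmd, which rest on few fragments.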
